A study of Mus musculus with 8 samples.

Results

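The genes described here make, bind and break down retinoic acid: Stra6, Rdh10, Dhrs3, Aldh1a2, Crabp1, Crabp2, Rarb, Cyp26a1 and Cyp26b1. They were taken by gene symbol, and all 9 were found among the 34536 symbols of the table. All 9 also passed the filter on low counts that left 13817 genes to test. The libraries were made from mouse cells that had been sorted by fluorescence out of embryoid bodies, clumps of pluripotent stem cells left to differentiate. There were 4 libraries of cells labelled endocardial (A, C, E and G) and 4 of cells labelled endothelial (B, D, F and H). No genotype, agent or culture day is named for either group in the sources used here, and neither are the sort markers. Nothing states that the 4 libraries of a group came from separate cultures, so p-values speak only of the spread among these samples, some of which may be technical.

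Retinoic acid is a small signal made from vitamin A. Stra6 carries retinol into cells, Rdh10 oxidises it to retinaldehyde, Dhrs3 turns retinaldehyde back into retinol, and Aldh1a2 makes retinoic acid from retinaldehyde. Crabp1 and Crabp2 bind retinoic acid in the cytoplasm, Rarb is a nuclear receptor for it, and the Cyp26 enzymes break it down. In the embryo the signal patterns the heart tube along its axis, and Rarb, Cyp26a1 and Dhrs3 are examples of textbook genes that it induces. The other members were not sorted by whether it induces them.

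The retinoic acid response element, to which retinoic acid receptors bind, is shown because it is the sequence through which the signal is known to induce genes. It was searched for on both strands as a direct repeat of AGGTCA or of AGTTCA or of GGGTCA or of GGTTCA, mixed pairs included, with 1, 2 or 5 bases between the copies. The search used windows of 250 bases before to 50 after annotated starts (RefSeq, build GRCm38.p6). Windows were present for 7 of the 9 genes, namely Aldh1a2, Dhrs3, Crabp1, Stra6, Rarb, Cyp26a1 and Cyp26b1. Rdh10 and Crabp2 had no window and so were not searched. A match was found for Rarb and for Cyp26a1, each with a spacer of 5 bases. The spacer of 5 occurred in 32 of 32851 windows, or 0.0974%, and any of the 3 spacers in 0.588%. A match describes the letters only, and binding was not measured. The elements, read along their own strand with the repeated motif in capitals, are:
Rarb: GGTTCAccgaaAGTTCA
Cyp26a1: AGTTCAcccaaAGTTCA

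The Rarb element lay at chr14:16575513-16575529, on the strand of the gene, from 53 to 37 bases before the RefSeq start. In GENCODE M21 the Rarb gene starts further upstream, and there the element overlaps an annotated exon of the gene. The Cyp26a1 element lay at chr19:37697776-37697792, on the opposite strand, from 32 to 16 bases before the RefSeq start, which lies downstream of the GENCODE M21 start given with the gene's levels. In the stretch chr19:37697726-37697797, read along the gene, the element is in capitals:
Cyp26a1 promoter: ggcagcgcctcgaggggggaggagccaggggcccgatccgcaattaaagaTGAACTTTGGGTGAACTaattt

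Library totals ran from 6677667 to 11369363 estimated counts, and levels are given as CPM, counts scaled to a common library total. A count of 0 allowed a level of up to 0.267 to 0.438 CPM, set at 3 counts for counting error alone. The labels were checked against marker genes. Of 8 endothelial markers, 6 were higher in the endocardial libraries, and the 8 summed to 1140 to 1640 CPM there against 343 to 802 CPM. Kdr and Tek, with log2 fold changes (endocardial minus endothelial) of 1.34 and 0.15, gave much of these sums. Cdh5 was at 119 to 157 CPM in endocardial against 14.5 to 17.1 CPM in endothelial libraries. The log2 fold changes of Cdh5, Erg, Tie1 and Esam were 3.04, 2.82, 2.64 and 2.43, and that of Pecam1 was 0.82. The group labelled endothelial thus had less of these endothelial genes. Of 7 tested endocardial markers, 4 were higher in the endocardial libraries. Pluripotency markers summed to 18.3 to 121 CPM in endocardial against 126 to 917 CPM in endothelial libraries, with the highest sum in library F, and 2 of 8 were lower in the endocardial libraries. Neural ectoderm markers summed to 142 to 217 against 195 to 335 CPM, and 5 of 8 were lower in the endocardial libraries. Nes, which was not among those 5, gave 109 to 189 and 137 to 171 CPM of these sums. Epithelial markers summed to 541 to 893 against 681 to 1240 CPM, with 2 of 7 lower. Krt8, not among those 2, gave 304 to 532 and 174 to 678 CPM of these sums, and Krt18 164 to 335 and 135 to 382 CPM. The log2 fold changes of Krt8 and Krt18 were 0.02 and 0.12, and those of the other epithelial markers ran from -2.34 to -1.43. None of these markers was at 0 in all libraries. In sorted cells, fewer cells of a type and less RNA per cell cannot be told apart.

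The comparison asks which of these genes differ between cells labelled endocardial and cells labelled endothelial. Crabp2, the binding protein that hands retinoic acid to its receptors, was lower in the endocardial libraries, at 9.68 ± 2.73 against 30.4 ± 10.3 CPM (SD, n = 4 each). Cyp26a1, an enzyme that degrades retinoic acid, was higher, at 30.5 ± 5.11 against 16.8 ± 2.94 CPM. These were the 2 of 9 genes called by edgeR's quasi-likelihood test at an adjusted p below 0.05, 1 higher and 1 lower. Before adjustment, edgeR gave p under 0.05 for 4 of the 9 (Stra6 and Cyp26b1 as well), beside 14.6% of all tested genes. Among all tested genes 2.58% were called, 1.42% with more and 1.16% with less in endocardial cells. The groups did not overlap in 2 of the 9 genes, the same pair, and in 9.76% of all tested genes. The median log2 fold change of the 9 was 0.10, beside 0.01 over all tested genes. The enzymes that make retinoic acid and the receptor Rarb were not called.

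**Figure D1:**
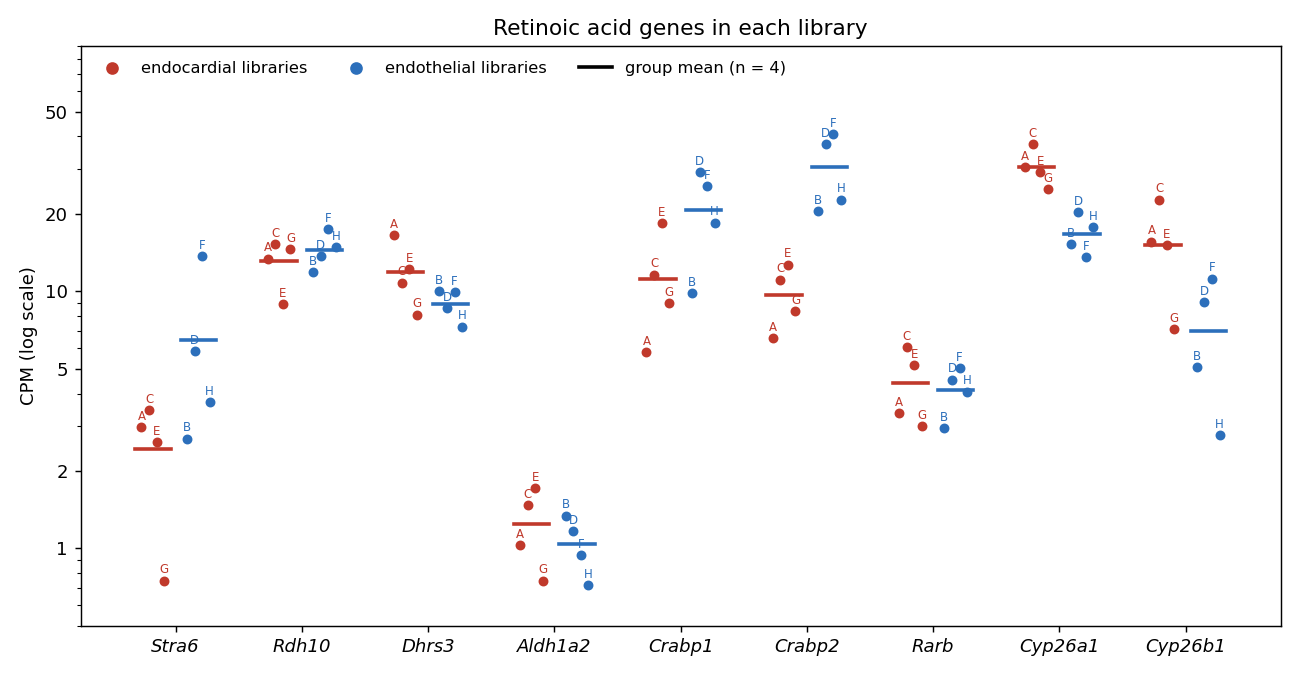
CPM of the 9 genes on a log axis, with a point for each library marked by its letter, endocardial in red and endothelial in blue, and a bar at the mean of each group (n = 4). Crabp2 and Cyp26a1 are the genes whose red and blue points do not overlap, in opposite directions.

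Stra6 (chromosome 9, 58063788 to 58153996) was low in most libraries. It stood at 2.97, 3.45, 2.58 and 0.75 CPM in endocardial libraries A, C, E and G and at 2.67, 5.84, 13.7 and 3.71 CPM in endothelial libraries B, D, F and H. It was highest in F and lowest in G, and the groups overlapped, since B lay below A and C. The log2 fold change, endocardial minus endothelial throughout, was -1.40 (SE 0.57, 95% interval -2.67 to -0.12, edgeR adjusted p = 0.289). Without library F it was -0.73.

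Rdh10 (chromosome 1, 16105774 to 16133734) catalyses the first oxidation of retinol. Its level was 13.4, 15.3, 8.93 and 14.6 CPM in A, C, E and G and 11.9, 13.7, 17.4 and 14.8 CPM in B, D, F and H. The ranges were nearly the same apart from a low value in E and a high value in F. The log2 fold change was -0.15 (SE 0.20, 95% interval -0.60 to 0.30, edgeR adjusted p = 0.817).

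Dhrs3 (chromosome 4, 144892827 to 144928209) runs the reaction in the other direction. It was at 16.5, 10.8, 12.2 and 8.11 CPM in A, C, E and G and at 9.99, 8.62, 9.91 and 7.29 CPM in B, D, F and H. Of the endocardial libraries, 3 lay above every endothelial library, and G lay among them. The log2 fold change was 0.41 (SE 0.23, 95% interval -0.11 to 0.92, edgeR adjusted p = 0.488). Per kilobase of exon, Dhrs3 had 4.06 ± 1.20 and Rdh10 3.14 ± 0.687 CPM in the endocardial libraries, against 3.06 ± 0.434 and 3.48 ± 0.559 CPM in endothelial libraries (SD, n = 4), so the order of the pair differed between groups within their spread.

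Aldh1a2 (chromosome 9, 71215789 to 71296243) is the main retinoic acid synthase of early mesoderm. It was near the floor everywhere, with 8, 14, 16 and 6 counts in A, C, E and G and 15, 8, 9 and 6 counts in B, D, F and H. These counts correspond to 0.75 to 1.72 CPM in endocardial against 0.72 to 1.34 CPM in endothelial libraries, and the groups overlapped. The log2 fold change was 0.26 (SE 0.37, 95% interval -0.57 to 1.09, edgeR adjusted p = 0.829). At this depth the data allow no difference as well as any difference within that interval. Its paralog Aldh1a3 had 2.49 ± 0.754 against 5.98 ± 2.67 CPM (log2 fold change -1.25, SE 0.39, edgeR adjusted p = 0.143). Aldh1a1, too low to test, had 0 to 5 counts per library. Of the summed level of these 3 enzymes per kilobase, Aldh1a2 held 46.3 to 53.0% in the endocardial libraries. In the endothelial libraries it held 45.4% in B, 24.2% in D, 17.3% in F and 21.9% in H. Aldh1a3 held 45.5 to 51.1% in the endocardial libraries, and 49.0% in B, 75.8% in D, 80.1% in F and 69.8% in H. Library B thus lay within the endocardial range of Aldh1a3 shares, and D, F and H lay above it.

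Crabp1 (chromosome 9, 54764748 to 54773110) varied widely within both groups. It was at 5.81, 11.6, 18.4 and 8.98 CPM in A, C, E and G and at 9.81, 29.1, 25.6 and 18.5 CPM in B, D, F and H. Libraries D, F and H lay above every endocardial library, H only just above E, while B lay among the endocardial values. The log2 fold change was -0.88 (SE 0.39, 95% interval -1.76 to 0.01, edgeR adjusted p = 0.347). With neighbouring letters (A with B and so on) as a block, a pairing that the labels do not give, it was called at -0.90 (edgeR adjusted p = 0.0154).

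Crabp2 (chromosome 3, 87948666 to 87953376) was at 6.58, 11.1, 12.7 and 8.36 CPM in A, C, E and G and at 20.5, 37.4, 40.9 and 22.7 CPM in B, D, F and H. Every endothelial library lay above every endocardial library, with D and F the highest. The difference was 3.12-fold, a log2 fold change of -1.64 (SE 0.28, edgeR adjusted p = 0.0156). The call was lost without library D (log2 fold change -1.53, edgeR adjusted p = 0.059) or G (-1.57, adjusted p = 0.0663). Per kilobase, Crabp2 made up 29.5 to 40.7% of the summed Crabp1 and Crabp2 level in the endocardial libraries and 42.6 to 55.9% in the endothelial libraries.

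The sums of pluripotent and neural markers were also lower on average in the endocardial libraries. Nes, with a log2 fold change of -0.06, made up much of each neural sum. The log2 fold changes of the other neural markers ran from -3.31 (Fezf2) to -1.55 (Zic1). Another neural marker, Fezf2, had the pattern over the 8 libraries most like that of Crabp2 among the genes compared, as given below. The libraries with the highest Crabp2, F and D, had pluripotency sums of 917 and 190 CPM and neural sums of 335 and 279 CPM. Library H, with a pluripotency sum of 208 CPM and a neural sum of 195 CPM, had 22.7 CPM of Crabp2. Endocardial library C had a higher neural sum than H, 217 CPM, with 11.1 CPM of Crabp2. Nes gave 189 CPM of that sum in C and 137 CPM in H. Of the other neural markers, all but Zic1 were lower in C than in H. Library E had the lowest neural sum of the 8, 142 CPM, and also the lowest Nes, 109 CPM. Otx2, the largest neural marker after Nes, was higher in E than in the other endocardial libraries, at 19.7 CPM. Crabp2 in E was the highest of the endocardial libraries. Endocardial library E and endothelial library B had pluripotency sums of 121 and 126 CPM, with Crabp2 at 12.7 and 20.5 CPM. Dppa5a gave 55.7 CPM of that sum in E and 33.3 CPM in B. Of the other pluripotency markers, all but Zfp42 were lower in E than in B. The part of these cells in the Crabp2 difference was not tested. Without library F the log2 fold change of Crabp2 was -1.48 and it was still called (edgeR adjusted p = 0.0279).

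**Figure D2:**
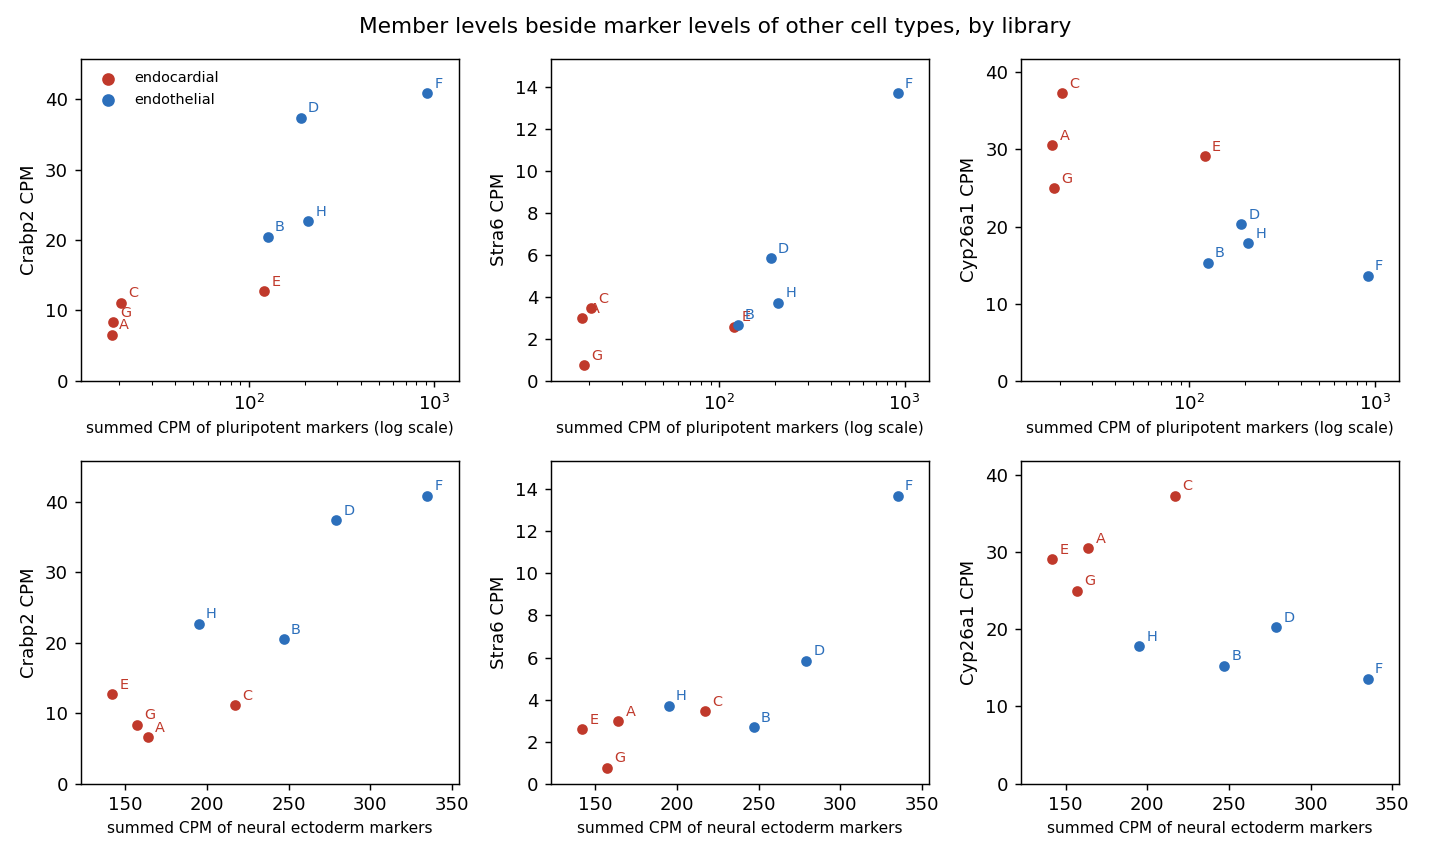
CPM of Crabp2, Stra6 and Cyp26a1 against the summed CPM of 8 pluripotency markers (upper row, log axis) and 8 neural ectoderm markers (lower row), a point for each library, endocardial in red and endothelial in blue. Library F, at 917 CPM of pluripotency markers, has the highest Crabp2 and Stra6 and the lowest Cyp26a1. Nes, which was alike in the groups, makes up much of each neural sum.

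Rarb (chromosome 14, 16430839 to 16819156), the receptor gene with the element shown above, was alike in range in the groups. It was at 3.36, 6.07, 5.16 and 2.99 CPM in A, C, E and G and at 2.94, 4.53, 5.01 and 4.07 CPM in B, D, F and H. The log2 fold change was 0.10 (SE 0.31, 95% interval -0.58 to 0.78, edgeR adjusted p = 0.931), and it was -0.12 without C and -0.03 without B. Rarb was the least abundant of the 3 receptor genes, with 3.22 to 5.91% of their summed level per kilobase in the endocardial and 3.44 to 6.03% in the endothelial libraries. Rara had 38.6 ± 3.59 against 34.8 ± 3.48 CPM (log2 fold change 0.15, SE 0.12) and Rarg a log2 fold change of -0.12 (SE 0.13), neither called.

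Cyp26a1 (chromosome 19, 37697798 to 37701536), also with an element, was at 30.5, 37.3, 29.1 and 25.0 CPM in A, C, E and G. It was at 15.3, 20.3, 13.6 and 17.8 CPM in B, D, F and H. The lowest endocardial library, G, lay above the highest endothelial library, D. The difference was 1.82-fold, a log2 fold change of 0.87 (SE 0.17, edgeR adjusted p = 0.0278). The call was lost in 4 of 8 fits that left out a library, without A (log2 fold change 0.85, edgeR adjusted p = 0.0787), C (0.74, 0.108), E (0.88, 0.0844) or F (0.76, 0.0643). Of the pluripotency sums, E had 121 CPM with 29.1 CPM of Cyp26a1, and B had 126 CPM with 15.3 CPM. Those sums held 55.7 CPM of Dppa5a in E and 33.3 CPM in B. Of the other pluripotency markers, all but Zfp42 were lower in E than in B, as were all neural markers but Zic1. The 2 libraries were thus not alike in these markers. The part of other cells in the Cyp26a1 difference was not tested either.

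Cyp26b1 (chromosome 6, 84571414 to 84593908) degrades retinoic acid as well. It was at 15.6, 22.7, 15.1 and 7.11 CPM in A, C, E and G and at 5.08, 9.05, 11.2 and 2.75 CPM in B, D, F and H. Libraries A, C and E lay above every endothelial library, and G lay below D and F. The log2 fold change was 1.11 (SE 0.44, 95% interval 0.12 to 2.11, edgeR adjusted p = 0.276). With neighbouring letters as a block it was called at 1.15 (edgeR adjusted p = 0.0166). The third paralog, Cyp26c1, had 1.06 ± 0.296 against 3.06 ± 1.80 CPM (log2 fold change -1.50, SE 0.51, edgeR adjusted p = 0.181). Summed per kilobase, the 3 Cyp26 genes gave 18.8 ± 3.88 CPM (SD, n = 4) in endocardial against 11.5 ± 2.08 CPM in endothelial libraries, and Cyp26a1 held 78.7 to 86.9% and 58.0 to 84.1% of that sum.

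**Figure D3:**
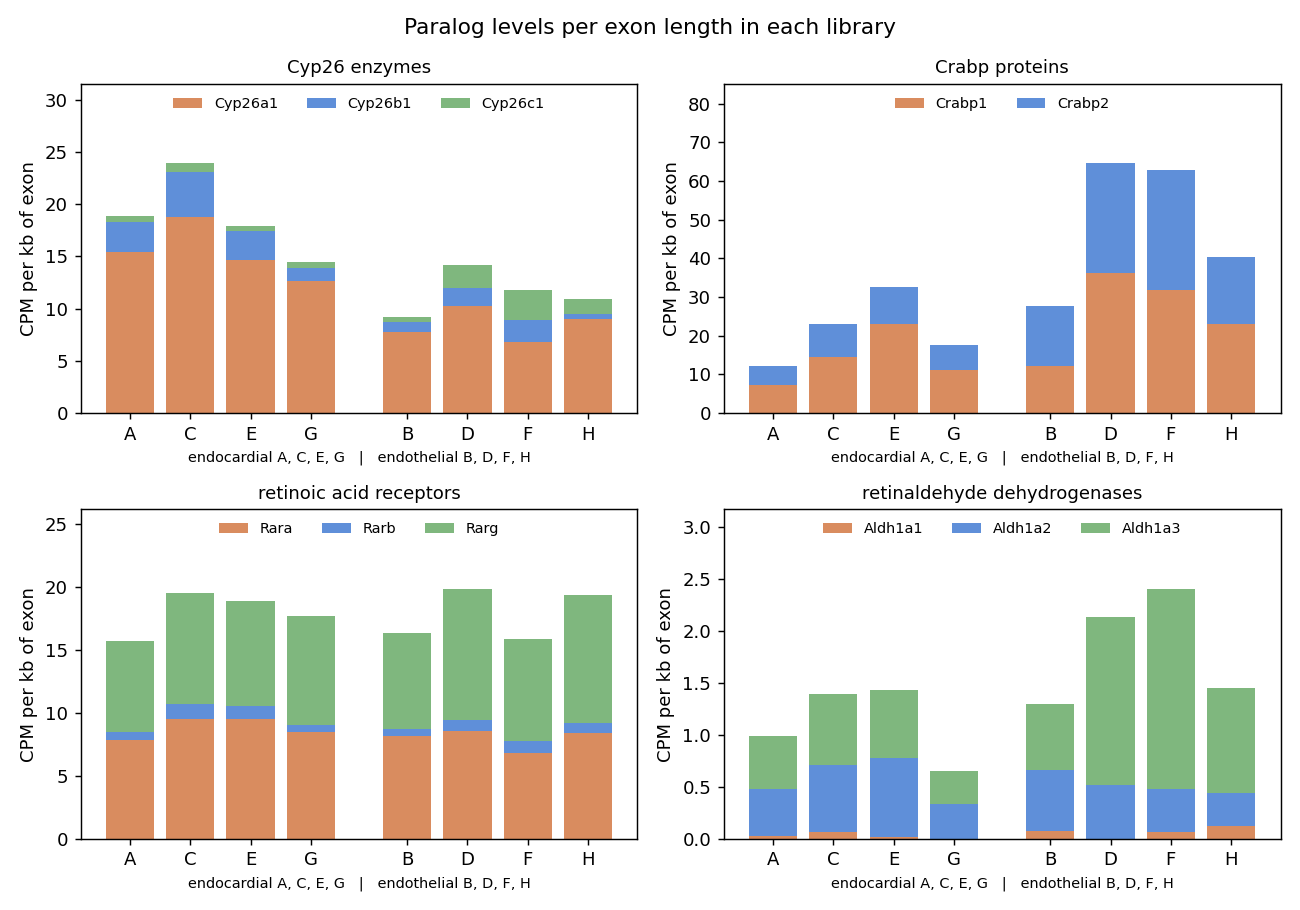
Level per library, in CPM per kilobase of merged exons, of the Cyp26 enzymes, the Crabp proteins, the retinoic acid receptors and the retinaldehyde dehydrogenases, stacked by gene, endocardial libraries on the left and endothelial on the right of each panel. Cyp26a1 makes up most of the Cyp26 sum, Rarb is a thin band among the receptors, and Aldh1a3 makes up 69.8 to 80.1% of its panel in D, F and H and 45.5 to 51.1% in the other libraries.

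Ordered by level per kilobase of merged exons, the endocardial libraries had Cyp26a1 (15.4 ± 2.58 CPM), Crabp1 (14 ± 6.67) and Crabp2 (7.32 ± 2.07) at the top, then Dhrs3, Rdh10 and Cyp26b1 (2.83 ± 1.19). Rarb (0.835 ± 0.278), Aldh1a2 (0.549 ± 0.192) and Stra6 (0.418 ± 0.203) were at the bottom. Between neighbours in that order, the ranges of mean ± SD (n = 4) were apart only from Cyp26b1 to Rarb. In the endothelial libraries Crabp1 (25.9 ± 10.6 CPM) and Crabp2 (23.0 ± 7.76) came before Cyp26a1 (8.45 ± 1.48), apart from both neighbours, and Aldh1a2 (0.460 ± 0.119) came last. With the longest transcript as the length, Crabp2 stood above Crabp1 in the endothelial libraries, at 32.6 against 25.9 CPM per kilobase. That length also put Stra6 above Aldh1a2 in the endocardial and above Cyp26b1 in the endothelial libraries.

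Of 64 further genes of the pathway in 3 lists, 44 could be tested and 1 was called, which was higher. Their median log2 fold change was -0.03. Of 27 genes of retinoid uptake, storage and synthesis, 13 were tested and 0 called by edgeR, DESeq2 or limma (edgeR gave 2 at an unadjusted p under 0.05, where 14.6% of all tested genes lay). Next to Aldh1a3, the smallest p-values in that list belonged to the retinol transporter gene Stra6l (log2 fold change -1.03, SE 0.44), the plasma retinol carrier gene Rbp4 (0.85, SE 0.39) and the dehydrogenase gene Rdh14 (-0.43, SE 0.22).

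All 17 receptor, binding protein, breakdown and cofactor genes were tested and 0 were called by edgeR, DESeq2 or limma (edgeR gave 2 at an unadjusted p under 0.05, Cyp26c1 and Ppard, again beside 14.6% of all tested genes). Ppard, a fatty acid receptor also described to bind retinoic acid, had a log2 fold change of 0.45 (SE 0.19). Fabp5, described as its carrier protein, had 0.30 (SE 0.16), and the retinoid X receptor gene Rxrg had -0.90 (SE 0.46).

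Among 20 genes known to respond to retinoic acid, 14 were tested and 1 was called. The log2 fold change was positive in 9 and negative in 5, and its median was 0.13. At an unadjusted p under 0.05 edgeR gave 5 of the 14, beside 14.6% of all tested genes, and the groups did not overlap in 4, beside 9.76%. Tgm2, a transglutaminase, was at 35.0, 41.7, 55.3 and 32.2 CPM in A, C, E and G and at 16.6, 16.8, 24.1 and 10.3 CPM in B, D, F and H. The groups did not overlap, and the log2 fold change was 1.27 (SE 0.25, edgeR adjusted p = 0.031). Leaving out a library, Tgm2 was called in 2 of 8 fits (without F and without H), and in the other 6 its edgeR adjusted p lay between 0.0556 (without B) and 0.102 (without D). The anterior Hox genes Hoxb1 and Hoxb2, which have response elements nearby, were not called. The log2 fold change of Hoxb2 was 0.87 (SE 0.25, edgeR adjusted p = 0.107), and that of Hoxb1 had a 95% interval of 0.25 to 1.75 (edgeR adjusted p = 0.18). The nuclear receptor gene Nr2f2 had a negative log2 fold change, -0.94 (SE 0.40, edgeR adjusted p = 0.314).

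**Figure D4:**
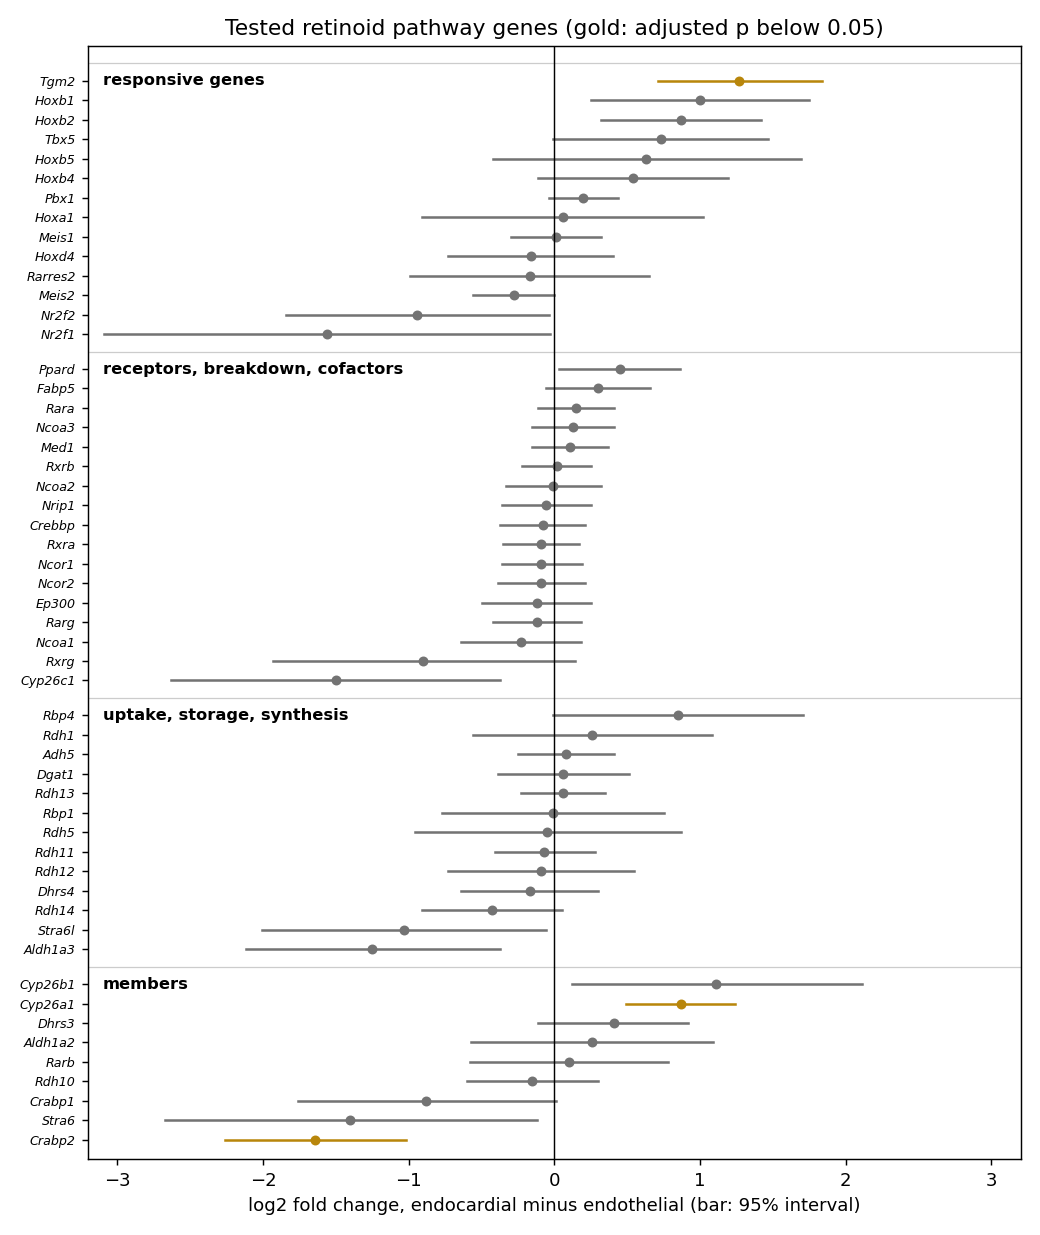
log2 fold change, endocardial minus endothelial, with its 95% interval for each tested gene of the 9 and of the 3 further lists, called genes in gold and the others in grey. Crabp2 lies at -1.64, Cyp26a1 at 0.87 and Tgm2 at 1.27, while most receptors and cofactors lie near 0 with narrow intervals.

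The genes whose pattern over the 8 libraries was most like that of Crabp2, by Pearson r of log2 CPM among 10925 genes with a mean of at least 5 CPM, were Fezf2 (r = 0.979), Large2 (0.975) and Cacnb2 (0.974). Fezf2 is also one of the neural ectoderm markers, and its mean was 0.981 CPM in endocardial against 10.1 CPM in endothelial libraries. Large2 averaged 4.44 against 22.3 CPM and Cacnb2 3.26 against 6.76 CPM. Each of these genes thus passed that minimum through the endothelial libraries alone. Those most like Cyp26a1 were Gne (0.977), Cd40 (0.964) and Fgf3 (0.951), and those most like Cyp26b1 were Desi1 (0.978), Zfp639 (0.950) and Actr5 (0.948). These are descriptions over 8 libraries that share the group difference, and with so few libraries many genes reach a high r.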

How the data were processed

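RNA was sequenced from 8 sorted samples with a stranded mRNA kit, per the labels' protocols. The authors deposited estimated counts per gene symbol, already whole numbers: Salmon, DESeq2 and build mm10 are named per the submitters' processing notes, with versions, transcript set and filters not given in the sources used here. Rounding changed 0 values. Counts were filtered with filterByExpr (minimum count 10, total 15), scaled by TMM, and fitted over all 8 libraries without a block by the robust quasi-likelihood F-test of edgeR 4.0.16 (R 4.3.3). p-values were adjusted over all 13817 tested genes (Benjamini-Hochberg), and called means adjusted p below 0.05. The fit was tested on simulated data. SE was derived from each fold change and its F value. CPM uses TMM-scaled totals. Lengths and gene positions are from GENCODE M21 (GRCm38, the assembly of mm10). The symbol Rbpr2 was read as Stra6l by RefSeq synonym.

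The 9 genes, the lists and the tests were chosen with earlier results of these data known. The rule for named genes took the 9, every called gene of each further list or, where fewer than 4 were called, the 4 with the smallest p, the paralogs Rara, Rarg, Aldh1a1, Aldh1a3 and Cyp26c1, and the 3 genes most like each of the 3 members with the smallest p. Marker lists of endoderm, epicardium, mesenchyme, heart muscle and blood were summed as well. Alternatives used DESeq2 1.42.0, limma 3.58.1 and sva 3.50.0.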

Additional observations from a re-analysis of the deposited data

How the results depend on the processing

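Crabp2 and Cyp26a1 were the 2 genes called with DESeq2, limma voom, relative log expression or upper-quartile scaling, no filter, a stricter filter, no robust estimation and 1 surrogate variable. At an adjusted p below 0.01, 0 of the 9 genes, 0 further pathway genes and 104 of all genes were called. With neighbouring letters as a block, a pairing that the labels do not give, 4 of the 9 (also Crabp1, adjusted p = 0.0154, and Cyp26b1, 0.0166), 6 further pathway genes and 1204 of all genes were called. Those 6 were Aldh1a3, Hoxb1, Hoxb2, Nr2f1, Nr2f2 and Tgm2. DESeq2 called 893 and limma 975 of all genes, against 356 by edgeR, and each called 2 further pathway genes, Tgm2 and Hoxb2. Leaving out a library in turn gave 1 to 2 of the 9, 0 to 2 further pathway genes and 135 (without E) to 457 (without B) of all genes. The 2 further pathway genes called without B were Cyp26c1 and Hoxb2. The 9 kept their sign except Rdh10 with limma (0.03) and Rarb without C (-0.12) or B (-0.03), whose range without a library reached 0.25. Aldh1a2 did not pass the stricter filter. Counts of 6 to 16 limit Aldh1a2, and the 95% intervals of Stra6, Crabp1 and Cyp26b1 are wide. The cause of these changes was not tested.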

Other observations

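Some genes of the further lists stood out in a single library, and they are named after their values were seen. Ttr, the plasma partner of the retinol carrier Rbp4, had 36 counts in endocardial library A and 2 to 14 in the others, too low to test. Rbp4 was at 10.1 CPM in A and at 2.09 to 4.62 CPM in the other libraries. The endoderm and yolk sac markers, a list that holds Ttr, summed to 43.8 CPM in A and to 8.86 to 24.1 CPM elsewhere. Stra8, a germ cell gene named for its induction by retinoic acid, had 45 counts (4.69 CPM) in endothelial library F and 1 to 8 counts in the others, and it was not tested. Of the other marker lists, mesenchyme markers summed to 2710 to 5480 CPM in endocardial against 2360 to 16500 CPM in endothelial libraries, with the highest sum in B. Blood markers summed to 485 to 1480 against 241 to 1960 CPM, epicardial and mesothelial markers to 15.1 to 30.1 against 21.2 to 117 CPM, and heart muscle markers to 148 to 333 against 103 to 207 CPM.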
